A study of Mus musculus with 6 samples.

Results

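The proteasome genes described here are all genes on the array whose symbol begins with Psma, Psmb, Psmc, Psmd or Psme and continues with a digit. The rule found 45 genes, measured by 75 probes, among 19406 genes named on the array. Of these, 38 genes were measured well enough to be tested, by 55 probes, and 7 were not. The symbols of 2 of the 45 genes, Psmc3ip and Psme3ip1, belong to proteins that interact with a subunit and are not subunits themselves. The rule used names alone, and no measured value entered it.

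Total RNA of medullary thymic epithelial cells (mTECs) with high MHC class II, labelled MHCIIhi mTECs, was measured on 6 single-colour Illumina bead arrays. All mice were of the C57Bl/6 strain, and the arrays came from 3 wild-type samples (genotype wt) and 3 samples of Aire knockout mice (genotype ako). Aire is the transcriptional regulator with which mTECs express genes of other tissues. Wild types 1 and 3 were female and wild type 2 was male, while knockout 2 was female and knockouts 1 and 3 were male. Wild types 1 and 2 and knockout 1 were on beadchip 1, and the other samples were on beadchip 2. The date label was the earlier of a pair for wild types 1 and 2 and the later one for all other samples. The labels give no Aire allele, no age, no sorting gate beyond MHC class II, and no number of mice behind each sample. The p-values therefore measure only the spread between these samples.

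The proteasome is a barrel-shaped protease that degrades ubiquitin-tagged proteins and supplies most of the peptides that MHC class I molecules present to T cells. Its 20S core has outer rings of alpha subunits and inner rings of beta subunits, and 3 of the beta subunits, encoded by Psmb5, Psmb6 and Psmb7, cut peptide bonds. Immune cells and cells exposed to interferon-gamma replace them with the immunoproteasome subunits Psmb8, Psmb9 and Psmb10, and cortical thymic epithelial cells replace the Psmb5 subunit with the thymoproteasome subunit Psmb11. The core is capped by the 19S particle, which unfolds and feeds substrates, or by activators such as PA28.

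The deposited values are normalized log2 values, and the 6 arrays have nearly the same overall distribution (medians of all probes 6.55 on each array). A gene was tested when its probe lay above the background bound of 6.80 on at least 3 arrays. Aire fell from 13.53 ± 0.13 in wild type to 10.22 ± 0.19 in knockout (mean ± SD, n = 3 each), a log2 change of -3.31 (SE 0.122, limma adjusted p = 4.69e-08), in the direction the labels give. Correlations over all tested probes were 0.984 to 0.994 between arrays of the same genotype and 0.909 to 0.935 between genotypes. Of 11 tested medullary markers, Aire, Krt5 (-1.83) and Krt14 (-0.70) fell and Tnfrsf11a (0.51) and H2-Aa (0.45) rose. Markers of other cells also differed, in samples where 18.3% of all tested genes were higher and 23.2% lower at a limma adjusted p under 0.05. Of the dendritic cell markers, 7 of 10 were not above background, Itgax, Flt3, Xcr1 and Clec9a among them, but Batf3 (log2 change 1.35) and Zbtb46 (0.59) rose, and the summed level of the list, as the mean over its tested genes, was 8.70 to 8.98 in wild type and 9.54 to 9.63 in knockout. Of the macrophage markers, 3 of 4 tested fell (log2 change -1.41 for C1qb, -1.26 for C1qa and -0.87 for Adgre1), with mean levels of 9.27 to 9.57 and 8.51 to 8.69. Of the thymocyte markers, 2 of 6 tested fell (-1.01 for Cd3g and -0.61 for Cd3d), with mean levels of 8.55 to 8.69 and 7.99 to 8.56, and Cd4, Rag1, Rag2, Dntt and Themis were not above background. Of the B cell markers, Blk (0.79) and Cd79b (0.34) rose and Cd79a fell by 0.91, with mean levels of 8.45 to 8.54 and 8.53 to 8.60. Ms4a1 and Pax5 were not above background. Adgre1 and Cd79a were above the background bound on the 3 wild-type arrays and on no knockout array. Both thus passed the filter only through the group where they were higher, and their knockout values lie at background. In bulk samples, fewer cells of a type and less RNA per cell cannot be told apart, and the part of these other cells in the proteasome values was not tested.

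Most proteasome genes differed little between genotypes. Their probes were bright, with a median signal of 12.18 log2 units over the 38 tested genes and 8.58 over all tested genes. Psmd10, a chaperone of 19S assembly, rose, Psmd7, a subunit of the 19S lid, fell, and 36 genes did not pass the test. The share called, 5.26%, stands beside 41.4% of all 11779 tested genes at an adjusted p under 0.05 (limma, Benjamini-Hochberg over all 19537 tested probes). In single directions, 1 of 38 members was called higher, against 18.3% of all genes, and 1 was called lower, against 23.2%. Since brighter genes were called less often, the 27 members with a mean of 11 or more were set beside the 1629 genes of that brightness: 1 member was called (3.70%), against 30% of those genes. Over single probes, 4 of the 55 tested member probes were called, against 38.4% of all tested probes, and 3 of the 4 measure Psmd10. The groups did not overlap for 12 members, 4 higher and 8 lower, against 54.3% of all genes.

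The changes were small in size as well as rarely called. The median size of the log2 change, regardless of sign, was 0.134 over the members, 0.270 over all tested genes and 0.190 over the genes with a mean of 11 or more. The spread within groups was of like size in all of these sets, with a median SD of 0.123, 0.137 and 0.126. Of the 36 members not called, 29 had a 95% interval of the change that lay within 0.5 log2 units of 0, and 35 within 1. The exception, Psmc1, had an interval of -0.29 to 2.03. A further 7 members had an unadjusted p under 0.05 in limma, the higher ones being Psmd5 and Psmd9 and the lower ones Psmb4, Psmc3, Psmc3ip, Psmd3 and Psme3. Of all tested genes, at least 41.4% had an unadjusted p under 0.05, because every called gene does, so the 7 members are no excess.

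**Figure D1:**
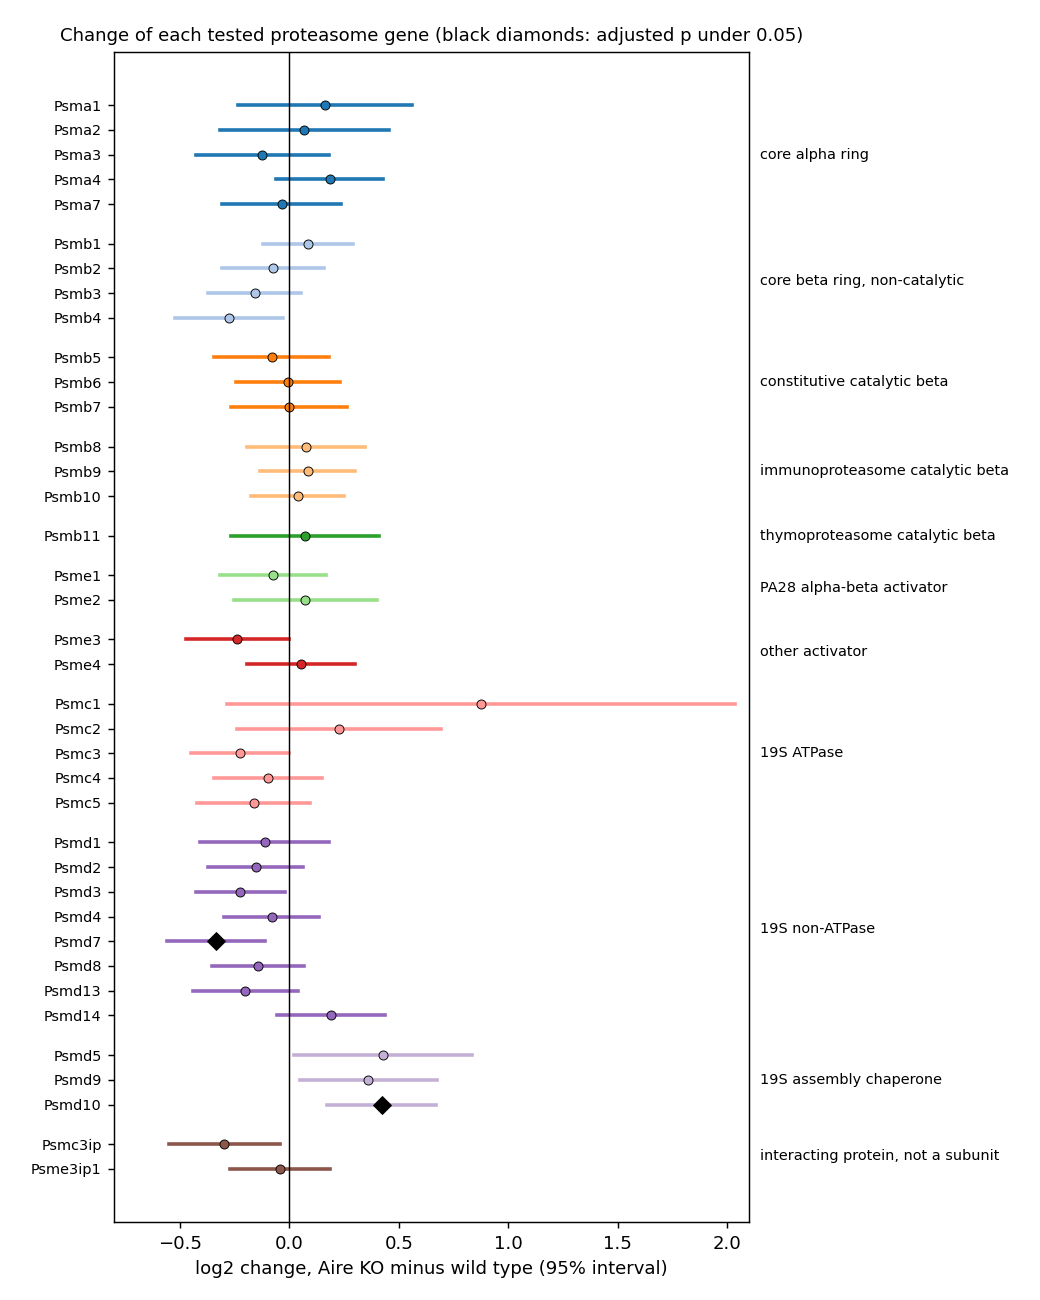
Log2 change (Aire knockout minus wild type, horizontal axis) of each of the 38 tested proteasome genes, grouped by role; points are changes, bars their 95% intervals from limma, and black diamonds the 2 called genes. Most intervals cross 0, Psmd10 lies above it at 0.42, Psmd7 below it at -0.34, and Psmc1 has the widest interval.

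Sequence context is given for 4 genes around which the comparison is built: the constitutive and inducible forms of one catalytic site (Psmb5 and Psmb8), the cortical form (Psmb11), and the called chaperone Psmd10. Each window runs from 250 bases before to 50 bases after the transcription start, 5′ to 3′ on the gene's strand, from RefSeq on GRCm38.p6, at chr14:54617946-54618245 (minus strand) for Psmb5, chr17:34197945-34198244 (plus) for Psmb8, chr14:54625060-54625359 (plus) for Psmb11 and chrX:140956662-140956961 (minus) for Psmd10. Capitals mark matches, on either strand, to TTCNNNGAA (the interferon-gamma activated site) or GAAANNGAA (a core of interferon-stimulated elements). They also mark TGANNNNGC (a loose form of the antioxidant response core), CCAAT and GGGCGG (a GC box).
Psmb5: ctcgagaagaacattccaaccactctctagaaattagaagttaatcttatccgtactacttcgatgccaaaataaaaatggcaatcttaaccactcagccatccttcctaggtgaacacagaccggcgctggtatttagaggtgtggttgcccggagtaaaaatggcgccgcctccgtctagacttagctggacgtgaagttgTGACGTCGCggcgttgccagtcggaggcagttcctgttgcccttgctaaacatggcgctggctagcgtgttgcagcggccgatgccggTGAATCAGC
Psmb8: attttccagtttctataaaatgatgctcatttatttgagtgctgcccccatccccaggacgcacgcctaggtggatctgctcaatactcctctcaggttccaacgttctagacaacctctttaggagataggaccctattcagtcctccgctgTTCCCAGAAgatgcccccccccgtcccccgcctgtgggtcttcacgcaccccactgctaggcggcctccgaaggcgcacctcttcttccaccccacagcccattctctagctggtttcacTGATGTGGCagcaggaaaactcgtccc
Psmb11: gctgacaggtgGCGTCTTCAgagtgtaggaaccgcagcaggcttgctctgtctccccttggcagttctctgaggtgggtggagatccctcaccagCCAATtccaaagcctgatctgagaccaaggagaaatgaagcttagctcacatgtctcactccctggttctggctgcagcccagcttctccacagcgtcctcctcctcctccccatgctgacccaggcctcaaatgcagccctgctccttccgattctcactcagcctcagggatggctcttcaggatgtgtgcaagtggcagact
Psmd10: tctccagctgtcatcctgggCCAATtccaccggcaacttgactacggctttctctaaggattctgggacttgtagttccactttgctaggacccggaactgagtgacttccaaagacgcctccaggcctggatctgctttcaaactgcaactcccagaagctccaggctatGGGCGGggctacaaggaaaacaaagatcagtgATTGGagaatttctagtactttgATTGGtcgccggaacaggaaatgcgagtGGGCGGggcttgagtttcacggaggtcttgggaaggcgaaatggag

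Of these 4 windows, that of Psmb8 holds the interferon-gamma activated site, TTCCCAGAA, at position -97 from the start, and a TGANNNNGC match at 23. Psmb5 holds TGANNNNGC matches at -47 and 41, and Psmb11 holds one at -239 and a CCAAT box at -155. Psmd10 holds CCAAT boxes at -230, -47 and -24 and GC boxes at -79 and 4. A window was found for 38 of the 45 members, which are not the same as the 38 tested genes, since untested ones such as Psma5 are among them. Only the first listed window of each member was used, while the shares over all windows count every window in the RefSeq table. TTCNNNGAA was present in 2 of the 38, Psmb8 and Psmd2, against 8.3% of all 32851 windows in the RefSeq table, and GAAANNGAA in 5, against 8.56%. TGANNNNGC was present in 21 members (55.3%, against 41.3%), CCAAT in 15 (39.5%, against 37.4%) and GGGCGG in 22 (57.9%, against 35.7%). Such a match describes letters only and shows no binding.

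The catalytic subunits were compared first, as constitutive, immuno- and thymoproteasome forms. None of the 7 genes was called by limma or had an unadjusted p under 0.05, and the wild-type and knockout arrays overlapped for each of them. The 3 constitutive genes had changes of -0.08 to -0.0035 and the 3 immunoproteasome genes of 0.04 to 0.08.

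Psmb5, the constitutive chymotrypsin-like subunit, read 11.70, 11.81 and 12.08 on wild types 1 to 3 and 11.74, 11.74 and 11.86 on knockouts 1 to 3. Wild type 3 was the highest array, and the groups overlapped. The log2 change was -0.08 (SE 0.118, 95% interval -0.35 to 0.18, limma adjusted p = 0.605). Psmb6, the constitutive caspase-like subunit, read 12.79, 12.95 and 13.03 in wild type and 12.84, 12.87 and 13.04 in knockout, so that the groups spanned the same range. Its change was -0.0064 (95% interval -0.25 to 0.23, limma adjusted p = 0.966). Psmb7, the constitutive trypsin-like subunit, read 12.36, 12.67 and 12.76 in wild type and 12.59, 12.57 and 12.62 in knockout. The knockout arrays lay inside the wild-type range, which wild type 1 widened at its low end. The change was -0.0035 (95% interval -0.27 to 0.26, limma adjusted p = 0.983), and the other probes of Psmb7 gave 0.13 and 0.12.

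Psmb8, which takes the place of Psmb5 in the immunoproteasome, read 13.61, 13.21 and 13.52 in wild type and 13.50, 13.60 and 13.46 in knockout. Wild type 2 was the lowest array and wild type 1 the highest. The change was 0.08 (SE 0.121, 95% interval -0.20 to 0.35, limma adjusted p = 0.642). The other Psmb8 probes gave 0.29 and 0.18, likewise not called and with overlapping groups. Psmb9, which takes the place of Psmb6, read 12.51, 12.38 and 12.35 in wild type and 12.55, 12.42 and 12.52 in knockout, with the groups interleaved. Its change was 0.08 (95% interval -0.14 to 0.30, limma adjusted p = 0.521). Psmb10, which takes the place of Psmb7, read 13.74, 13.70 and 13.76 in wild type and 13.69, 13.86 and 13.77 in knockout, where knockout 1 was the lowest of all arrays and knockout 2 the highest. Its change was 0.04 (95% interval -0.17 to 0.25, limma adjusted p = 0.768), with 0.06 from a further probe.

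Psmb11, the thymoproteasome subunit, is a marker of cortical rather than medullary epithelium. It was dim: 7.28, 7.25 and 6.90 in wild type and 7.09, 7.05 and 7.50 in knockout, above the bound of 6.80 on all 6 arrays. The lowest array was wild type 3 and the highest knockout 3, so the groups overlapped. The change was 0.07 (SE 0.151, 95% interval -0.27 to 0.41, limma adjusted p = 0.723). A background level remains in values this dim and compresses their folds. Of the 11 cortical markers, 4 were not above background (Ctsl, Ackr4, Foxn1 and Kitl). Among the 7 tested, Psmb11 included, Ly75 (0.43), Ccl25 (0.39) and Prss16 (0.31) rose and Dll4 fell by 0.55. Of all tested genes, 41.4% were called in either direction. Ly75 and Prss16 were about as dim as Psmb11, with wild-type means of 7.09 and 7.11. The mean level of the tested cortical markers was 9.11 to 9.37 in wild type and 9.15 to 9.41 in knockout.

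**Figure D2:**
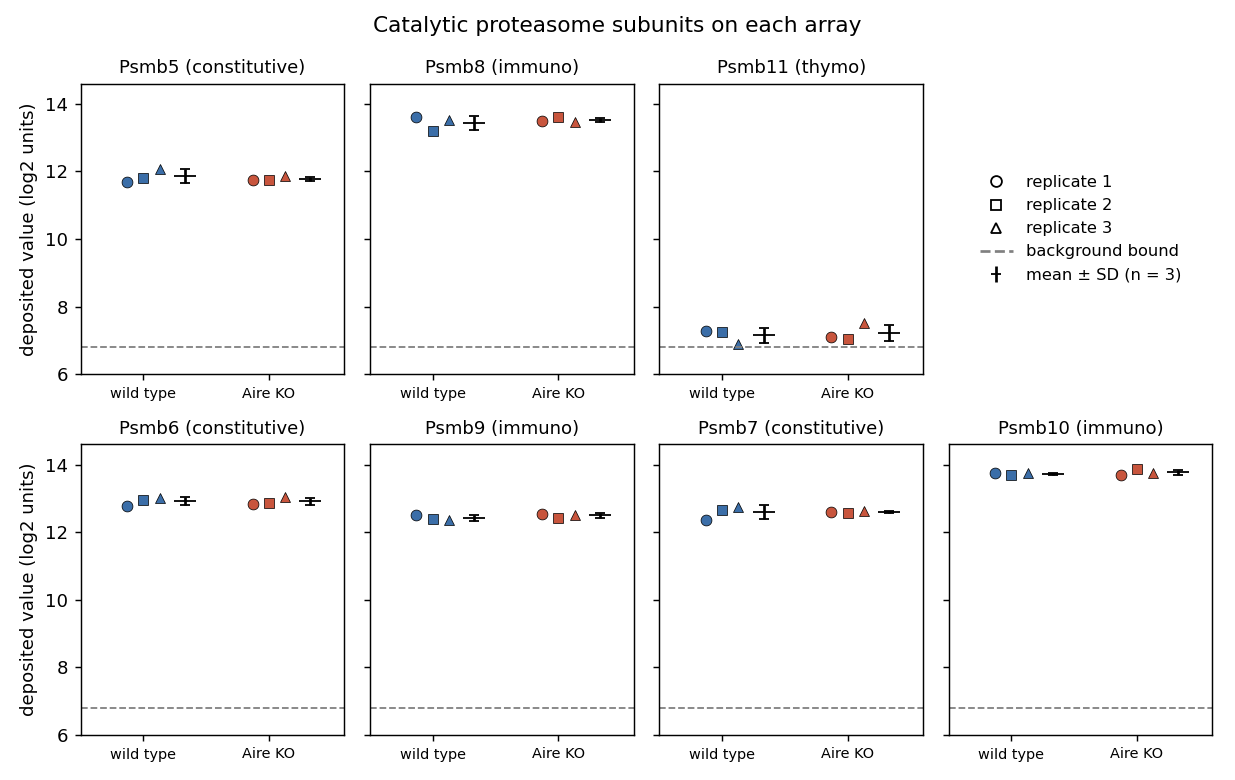
Deposited log2 values (vertical axis) of the 7 catalytic subunits on each array, wild type in blue and Aire knockout in red; symbols mark replicates 1 to 3, bars the mean ± SD (n = 3) and the dashed line the background bound of 6.80. The groups overlap in every panel, and Psmb11 lies near the bound.

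Whether the immunoproteasome form shifted against the constitutive form it replaces was tested within arrays, as the difference between the log2 values of the pair on each array. Probes differ in brightness for equal RNA, so only the change of this difference between genotypes was read. For Psmb8 minus Psmb5 the differences were 1.91, 1.41 and 1.44 in wild type and 1.75, 1.86 and 1.61 in knockout. All knockout values lay between the lowest and the highest wild-type value. The mean difference was 0.157 higher in knockout (SE 0.179, exact two-sided permutation p = 0.4). For Psmb9 minus Psmb6 it was 0.089 higher (SE 0.135, exact permutation p = 0.6) and for Psmb10 minus Psmb7 0.042 higher (SE 0.132, exact permutation p = 0.7). Over the 3 pairs the adjusted p was 0.7 for each, in a design of 3 against 3 arrays whose smallest possible exact p is 0.1.

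PA28 alpha and beta, encoded by Psme1 and Psme2, form an interferon-inducible ring that opens the core. Psme1 read 13.73, 13.82 and 13.99 in wild type and 13.67, 13.80 and 13.85 in knockout (log2 change -0.07, 95% interval -0.32 to 0.17, limma adjusted p = 0.602). The groups overlapped, with wild type 3 highest, and the other tested Psme1 probe gave a change of the opposite sign, 0.15, also not called. Psme2 read 10.85, 11.36 and 11.40 in wild type and 11.30, 11.31 and 11.22 in knockout (0.07, 95% interval -0.25 to 0.40, limma adjusted p = 0.712). Wild type 1 lay below all other arrays. With Psmb8, Psmb9 and Psmb10, these make 5 interferon-inducible members, of which 0 were called by limma, 0 had an unadjusted p under 0.05, and all 5 had an interval within 0.5 of 0. The other activators, the nuclear Psme3 (PA28 gamma) and Psme4 (PA200), had changes of -0.24 (limma adjusted p = 0.0986) and 0.05.

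No gene of the constitutive core was called. Of its alpha subunits, 5 of 7 were tested and 0 called, with a median change of 0.07 and a range from -0.12 (Psma3) to 0.18 (Psma4). This median was below 0 in 10 of 25 alternatives, -0.19 within beadchip 2 and -0.20 with the date label among them. Some of the 25, such as a changed variance model alone, cannot alter a median. Psma4 was the 1 alpha gene whose groups did not overlap. The non-catalytic beta genes Psmb1, Psmb2, Psmb3 and Psmb4 had a median of -0.12, from -0.28 (Psmb4) to 0.09 (Psmb1). The sign of this median depended on the probes: it was -0.02 with probes averaged by gene and 0.05 with the dimmest tested probe of each, and the other tested Psmb3 probe gave 0.14 against -0.16 for the brightest. Psmb4 had the lowest adjusted p of the core (0.0729 by limma), and its 3 knockout arrays lay below its 3 wild-type arrays.

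The 19S particle holds a ring of ATPases that unfold substrates, and non-ATPase subunits that bind and deubiquitinate them. Of the ATPase genes, 5 of 6 were tested and 0 called (median -0.10). Psmc3 had a change of -0.23 (limma adjusted p = 0.0985). Psmc1 had the largest change of any member and the least certain one: 8.49, 9.17 and 6.59 in wild type and 9.18, 8.64 and 9.06 in knockout. Wild type 3 lay below the background bound and apart from all other arrays, and the change of 0.87 (SE 0.518, limma adjusted p = 0.205) was 0.13 without it. Psmc2 was above the bound on 3 of the 6 arrays. Of the non-ATPase genes, 8 of 11 were tested. On the brightest probe of each, 7 of these had a change below 0, and the median was -0.15. They include Psmd1 (-0.11) and Psmd2 (-0.15), the scaffolds of the base, the ubiquitin receptor Psmd4 (-0.08) and Psmd3 (-0.22, limma adjusted p = 0.0789). The deubiquitinase Psmd14 had the change above 0 (0.19). The signs depended on the probe for some of these genes. The other tested probe gave 0.36 for Psmd2, 0.14 for Psmd13 and -0.16 for Psmd1, and the probes of Psmd7 differed in sign. The median was -0.09 with probes averaged by gene and -0.07 with the dimmest tested probe of each. It was below 0 in all 25 alternatives, but some of these, such as a changed variance model alone, cannot alter a median.

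Psmd7, the inactive partner of Psmd14 in the lid, was the called member of this group. It read 12.17, 12.22 and 12.03 in wild type and 11.82, 11.73 and 11.86 in knockout. Each knockout array lay below each wild-type array. The log2 change was -0.34 (SE 0.0996, 95% interval -0.56 to -0.11, limma adjusted p = 0.0242), which is 1.26-fold lower. Its other 2 tested probes were not called and gave different signs. The first read 9.19, 9.89 and 10.19 in wild type and 9.66, 9.99 and 9.93 in knockout, a change of 0.11, and the second gave -0.07. Both had overlapping groups, and the mean of the 3 probes changed by -0.10 (limma adjusted p = 0.447). Within beadchip 1 the change of the brightest probe was -0.37 and within beadchip 2 it was -0.23. With the beadchip as a block, the call was lost (-0.30, limma adjusted p = 0.0548). It was also lost without wild type 2 (limma adjusted p = 0.0739), without knockout 1 (0.0700) or without knockout 2 (0.0927), each with a change between -0.35 and -0.30.

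Psmd10, Psmd5 and Psmd9 encode chaperones that bind the ATPases during assembly of the 19S base and leave the finished particle. On the brightest probe of each, the knockout arrays lay above the wild-type arrays. The groups did not overlap, in either direction, for 54.3% of all tested genes. Psmd10, also known as gankyrin, read 9.67, 9.78 and 9.99 in wild type and 10.16, 10.24 and 10.30 in knockout. The log2 change was 0.42 (SE 0.111, 95% interval 0.17 to 0.67, limma adjusted p = 0.0143), which is 1.34-fold higher. The other Psmd10 probes were called as well: one read 8.08, 8.77 and 8.92 in wild type and 9.20, 9.39 and 9.29 in knockout (0.71, SE 0.193), the other 8.17, 8.50 and 8.66 against 8.87, 8.96 and 9.08 (0.53, SE 0.134). No probe's groups overlapped, and wild type 1 was the lowest array on each. Within beadchip 1 the change of the brightest probe was 0.44, within beadchip 2 it was 0.28, and with the beadchip as a block it was 0.36 (limma adjusted p = 0.0309). With the date label as a covariate, which leaves wild type 3 as the wild-type array of the later date, the change was 0.24 and the call was lost (limma adjusted p = 0.258), and that of Psmd7 was -0.22 (0.284).

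Psmd5 read 7.71, 8.38 and 8.35 in wild type and 8.51, 8.79 and 8.43 in knockout, with wild type 1 far below the others (log2 change 0.43, limma adjusted p = 0.0886). Psmd9 read 7.14, 7.64 and 7.63 in wild type and 7.76, 7.87 and 7.86 in knockout (0.36, limma adjusted p = 0.0671). Wild type 1 was again the lowest array. The groups overlapped on the other tested Psmd9 probe (6.58, 6.93 and 7.01 against 6.86, 7.05 and 7.37, log2 change 0.25, limma adjusted p = 0.226). The median change of the 3 chaperones was 0.42, and without wild type 1 it was 0.21. Over the alternatives it ranged from 0.17 (within males) to 0.51. Wild type 1 was the lowest array for 14 of the 38 members (36.8%), against 21.5% of all tested genes.

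**Figure D3:**
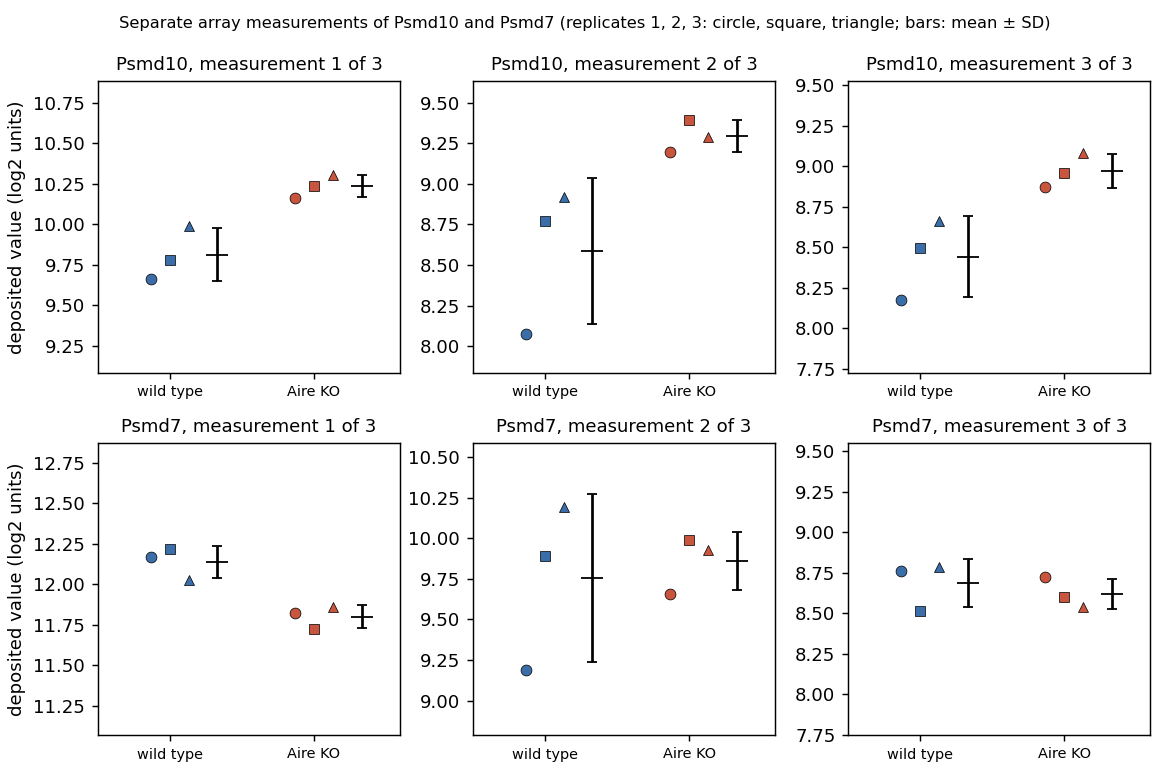
Deposited log2 values (vertical axes, which share a span but not a starting point) of the 3 tested probes of Psmd10 (top) and of Psmd7 (bottom) on each array; symbols mark replicates 1 to 3 and bars the mean ± SD (n = 3). The knockout arrays lie above the wild-type arrays on all 3 Psmd10 probes, and below them on 1 of the 3 Psmd7 probes.

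Neither of the 2 interacting proteins was called. Psmc3ip, which acts in meiotic recombination, had a change of -0.30 with no overlap between groups (limma adjusted p = 0.0619), and Psme3ip1, which binds Psme3, one of -0.04. The 7 members not tested were Psma5, Psma6, Psma8, Psmc6, Psmd6, Psmd11 and Psmd12. None of their probes lay above the bound on any array. Psma8 is a testis form of an alpha subunit, while the others belong to the 20S core or the 19S particle of most cells, so a probe at background does not show that the transcript is missing. No tested member had an effect of sex, or a difference between the sexes in the genotype effect, at an adjusted p under 0.05 in the limma fit (0 of 38 for each); at an unadjusted p under 0.05 there were 0 for sex and 1, Psma1, for the difference.

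**Figure D4:**
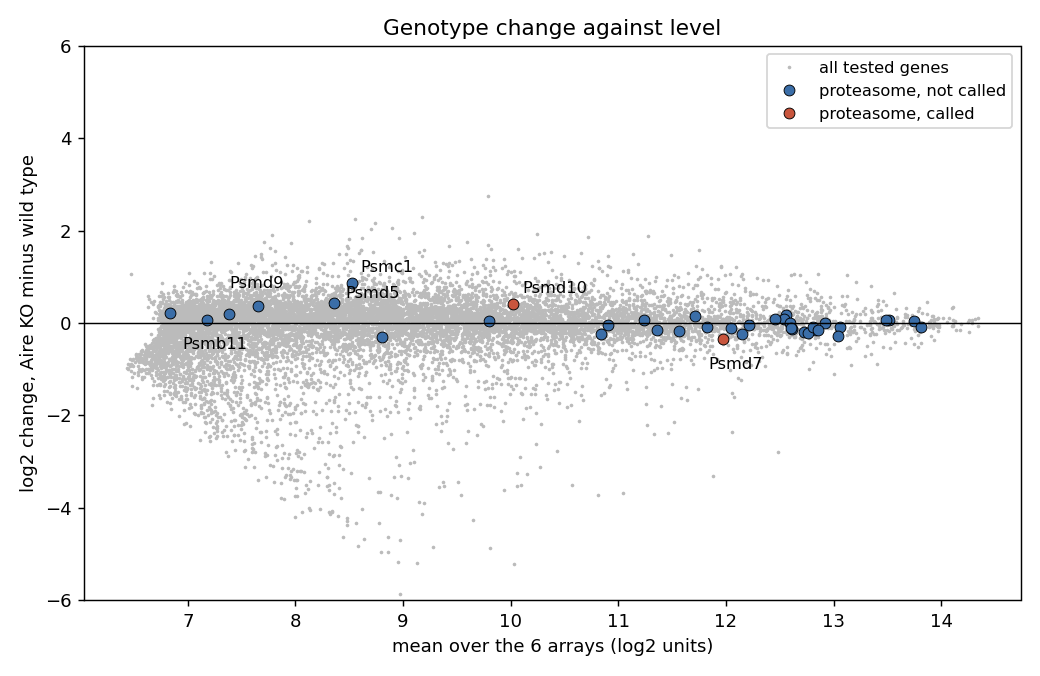
Log2 change (Aire knockout minus wild type, vertical axis) against the mean over the 6 arrays (horizontal axis, log2 units) for all tested genes (grey) and for the 38 tested proteasome genes (blue, with the 2 called genes in red). Most proteasome genes lie at the bright end and close to 0, where grey points spread less.

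Genes that work beside the proteasome were then compared. Of 23 genes of proteasome assembly, regulation and shuttling, 12 were tested and 0 called by limma, against 41.4% of all tested genes. The median change was 0.06, and 2 of the genes had an unadjusted p under 0.05 in limma. The core assembly chaperones Pomp (-0.07), Psmg1 (-0.02), Psmg2 (0.02) and Psmg3 (0.13) were among them, as was Nfe2l1 (-0.03), the transcription factor that raises proteasome genes when degradation is blocked. The largest changes of the list were those of Nfe2l2 (0.38, limma adjusted p = 0.0663), a regulator of oxidative stress genes, and the unfoldase Vcp (-0.24, limma adjusted p = 0.0752). Of the genes of ubiquitin and its activation, only Uba6, an activating enzyme, was tested, and it rose by 0.49 (limma adjusted p = 0.0155).

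Of 10 genes of MHC class I and its peptide supply, 8 were tested and 2 rose, against 18.3% of all tested genes called higher. Tapbp, the tapasin bridge between the peptide transporter and MHC class I, rose by 0.85 (SE 0.204, limma adjusted p = 0.00924), and the chaperone Canx by 0.30 (limma adjusted p = 0.0283). The transporter genes did not pass the test, with -0.24 for Tap1 (limma adjusted p = 0.0693) and -0.16 for Tap2 (0.283). Of the 7 tested regulators of the immunoproteasome, Irf8, an interferon-regulated factor also abundant in dendritic cells and B cells, rose by 0.87 (SE 0.0966, limma adjusted p = 8.83e-05). Irf1, the main activator of Psmb9 after interferon, had -0.15 (limma adjusted p = 0.304), and Nlrc5, the MHC class I transactivator, -0.03. Dendritic cell and B cell markers moved in these samples as given above, and their part in the Irf8 and Tapbp values was not tested.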

How the data were processed

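The values analysed are those of the series' value table, 1 per probe and array. The authors deposited log2 values already normalized between arrays; BeadStudio and lumi, with no version, are the tools in the submitters' processing notes. No source used here names the background correction or transform, so folds are 2 raised to the difference in log2. The other deposited tables hold 24 value columns whose names match no sample label, and these were not used.

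The background bound of each array was the mode of its values plus 3 SD, and a probe was tested when above it on 3 arrays. Gene symbols came from the platform's annotation; of the probes, 32782 had 1 symbol, 55 had several and 13782 none, and probes with several were not named. For each gene the brightest tested probe stood for it. The genotype term alone was fitted with lmFit and eBayes of limma 3.58.1 (R 4.3.3), with two-sided p-values adjusted by Benjamini-Hochberg over all tested probes and a threshold of 0.05, after the code was tested on simulated data. Differences within pairs of subunits were compared by exact permutation. The number of arrays limits the precision.

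By rule, every member could be named, with values on each array for Psmb5 to Psmb11, Psme1, Psme2 and called members (other members with values on each array were chosen after their values were seen), and from each comparison list up to 4 called genes with the largest changes, with Aire, Tap1, Tap2, Tapbp and Irf1; a further gene of this rule is not reported here. Genes of these lists outside that rule were likewise chosen after their values were seen. The members, lists and tests were chosen with earlier results of these data known. Alternatives changed the filter, scaling, covariates, variance model, probe choice and samples.

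Same-numbered arrays of the 2 genotypes deviated from their group means with correlations of 0.203, -0.060 and -0.016. Wild type 3 and knockout 2, whose numbers differ, had 0.256. No pairing by number was assumed, although such values from 3 arrays per group cannot exclude one.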

Additional observations from a re-analysis of the deposited data

How the results depend on the processing

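Proteasome genes were refitted under 25 alternatives. None of Psmb5 to Psmb11, Psme1 or Psme2 was called in any of them, and no called change turned its sign. Psmd10 kept its call in 17 (changes 0.24 to 0.55, limma adjusted p 0.00815 to 0.292) and Psmd7 in 12 (-0.44 to -0.07, limma adjusted p 0.00711 to 0.661). The count of members called higher was 1 and of those called lower 1. Leaving out 1 array at a time gave 1 to 2 higher and 0 to 2 lower; Psmc1 was called without wild type 2, Psmb4 without wild type 3 and Psmc3ip without knockout 3. The counts were 0 and 0 within beadchip 1, within females, within males and with beadchip and sex together. With the beadchip as a block 2 were higher (Psmc1 and Psmd10) and 0 lower. With the date label and with housekeeping scaling, 0 were lower, and Psmc1 was the 1 higher. Within beadchip 2 the change of Psmc1 was 2.26. Within beadchip 2 and with the date label, genotype is compared with wild type 3 alone, the array on which Psmc1 lay below background. With housekeeping scaling the change of Psmc1 was 0.88, near the 0.87 of the main fit. That fit gave all probes a common variance, so the wide wild-type spread of Psmc1 did not enter its test. Psmd10 (0.43) and Psmd7 (-0.33) lost their calls in the same fit. The dimmest tested probe of each gene, an alternative chosen after seeing the data, also gave 0 lower. Cyclic loess and array weights gave 2 lower (Psmd7 and Psmc3ip).

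Of the 20 tested housekeeping genes, Tbp (0.36) and Canx (0.30) rose, with a median of 0.01. The median change of all tested probes was 0.10 as deposited, -0.00026 after cyclic loess and -0.06 with an estimated shift removed. The estimate used only probes called lower, forcing knockout values down. Its 0 higher and 6 lower members (Psmb4, Psmc3, Psmc3ip, Psmd3, Psmd7 and Psme3) are no finding. Psmd10 had 0.25 (limma adjusted p = 0.112) and the members' median moved from -0.04 to -0.14. With the replicate block, 3 members were higher (Psmd10, Psmd5 and Psmd9) and 1 lower, although pairing by number was not established.

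Of all tested probes, 4042 were higher and 3462 lower. Fewer were higher with cyclic loess (2347), housekeeping scaling (2656), the shift removed (1922) and in males (1968), and fewer lower (1895) with all 6 arrays above background. Both counts fell within beadchip 1 (514 and 1466), beadchip 2 (907 and 1711) and females (749 and 1721), and with the date label (1659 and 2248). Leaving out 1 array gave 2467 to 4125 higher and 2772 to 3478 lower, the fewest without knockout 2, and 2609 higher without knockout 1. The pairs were computed in 21 alternatives, and some of these, such as housekeeping scaling, cannot change a difference within arrays. Psmb10 minus Psmb7 was below 0 in 6 of the 21 (lowest -0.10, within beadchip 1). The other pairs stayed above 0, but Psmb9 minus Psmb6 fell to 0.0059 without wild type 3. In the main comparison the exact permutation p was 0.4 for Psmb8 minus Psmb5 and 0.6 for Psmb9 minus Psmb6. The sign is therefore not settled for any pair. Pair differences moved beyond the spread to 0.217 for Psmb10 minus Psmb7 within beadchip 2, 0.256 for Psmb9 minus Psmb6 with the date label and 0.387 for Psmb8 minus Psmb5 with beadchip and sex. The causes were not tested. Values near the background bound, such as those of Psmb11, have compressed folds.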

Other observations

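Several probes were tested for 13 members, and the signs of their changes were the same for 5 of these genes and mixed for 8. The brightest probe had a lower change than the dimmest for 11 of the 13 (84.6%), against 66.8% of the 3232 genes with several tested probes, with a median difference of -0.13 against -0.11. For Psmd2, a scaffold subunit of the 19S base, the bright probe read 11.48, 11.47 and 11.36 in wild type and 11.37, 11.21 and 11.27 in knockout (log2 change -0.15), while the dim one read 7.25, 7.87 and 7.72 against 7.98, 8.20 and 7.74 (0.36). Neither was called, and Psmd2 was picked after its values were seen.

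The median changes of dim and bright members had different signs. The 4 members with a mean under 8 (Psmb11, Psmc2, Psmd14 and Psmd9) had a median change of 0.21 and the 21 with a mean of 12 or more one of -0.08, while the medians of all tested genes in these ranges were 0.01 and -0.02. This was noticed in the data and was not tested.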
